A study of Mus musculus with 13 samples.

Results

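The myelin protein genes examined here were Mbp, Mog, Mag, Cnp, Mobp, Opalin, Cldn11, Mal and Ermn, 9 of the 21911 protein-coding genes of the GENCODE M21 annotation of the mouse genome (GRCm38, also called mm10). They were chosen by name, as genes for proteins of the oligodendrocyte and its myelin sheath, and the rule uses no measured value, though earlier results of these data were known when it was set. At each gene, the called peaks of the trimethylated histones H3K4me3 (K4) and H3K27me3 (K27) were taken within 2 kb of any annotated transcription start site (TSS) or in the gene, and the called peaks of the transcription factor OLIG2 in the gene or within 50 kb of it. The series holds 13 samples, of which 10 gave values here: K4 and K27 ChIP-Seq of neural stem cells (NSCs), oligodendrocyte precursor cells (OPCs) and newly formed oligodendrocytes (NFOs), OLIG2 ChIP-Seq of OPCs and NFOs, and RNA immunoprecipitation (RIP-Seq) with an OLIG2 antibody and with control IgG. Each condition had 1 library, so no value carries a replicate error, no difference between cell types was tested, and the read depth of the ChIP-Seq libraries is unknown. All samples were labelled untreated and C57BL/6. The NSCs were bought, came from the cortices of E14.5 CD-1 embryos by the growth protocol, and were kept in culture with EGF and FGF, whereas the OPCs and NFOs were immunopanned from C57BL/6 brains at postnatal day 7 by the methods of the study, on plates coated for PDGFRα and for galactocerebroside. Strain, culture and age therefore cannot be told apart from the step from NSCs to OPCs. The antibody labels of the 6 histone libraries name the mark opposite to their titles. The titles were followed, and the lists so titled differed at start sites as the background shares below show.

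Myelin is the compacted, lipid-rich membrane that oligodendrocytes wrap around axons, and its proteins appear in bulk when a precursor leaves the cell cycle and matures. K4 lies at start sites of genes that are active or ready to be, K27 is the mark of Polycomb repression, and a start site that carries both is called bivalent. OLIG2, a basic helix-loop-helix factor that binds E-box sequences, is needed for the lineage to form. The study cites earlier work in which its loss from OPCs lowered differentiation, while its loss from immature oligodendrocytes led to maturation and myelination.

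The 3 K4 lists held 18284 to 33292 called peaks, the 3 K27 lists 12688 to 36069, and the OLIG2 lists 7384 in OPCs and 16911 in NFOs. The median width of a K4 peak was largest in OPCs (987 bp), with 553 bp in NSCs and 256 bp in NFOs. Against the labels, K4 peaks stood at 6 of 6 OPC marker genes in NSCs and in OPCs and at 5 of 6 in NFOs, and at 8, 8 and 4 of 8 NSC marker genes. Of the genes of other cells, K4 peaks stood in NSCs, OPCs and NFOs at 0, 1 and 0 of 6 microglial genes, at 6, 6 and 5 of 7 neuronal, at 4, 2 and 1 of 6 astrocytic and at 2, 2 and 2 of 6 endothelial genes. Over all protein-coding genes, the K4 shares in NSCs, OPCs and NFOs were 64.3%, 60.8% and 43.6%. The part of other cells in the values below was not tested.

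H3K4me3 was listed at fewer of the myelin protein genes in NFOs than in the earlier cell types, as it was over all protein-coding genes. In NSCs, a K4 peak lay near a start site of 4 of the 9 genes (Mbp, Cnp, Cldn11 and Mal), where 64.3% of all protein-coding genes had one. In OPCs the same 4 genes had one, against 60.8% of all genes. In NFOs only Cnp and Mal had one, 2 of 9 against 43.6% of all genes, and with the filter of the methods (FDR below 0.05 and fold enrichment above 3.5) Mal alone was left, 1 of 9 against 38.6%. Thus 2 genes, Mbp and Cldn11, were listed in NSCs and OPCs and not in NFOs, a course taken by 17.7% of all genes, 2 genes were listed in all 3 cell types (41.8%), and 5 in none (33.6%). The 5 without K4 near a start site were Mog, Mag, Mobp, Opalin and Ermn. At Mbp, K4 lay at the upstream start sites of the long transcripts and in no cell type at those of the classic myelin transcripts. Fold enrichment, the height of a peak over the background as the authors' peak caller gave it, had a median over the marked members of 4.71 (NSCs), 4.76 (OPCs) and 3.66 (NFOs), against 8.44, 6.50 and 5.02 over all genes with a K4 peak. The NFO list as a whole had fewer genes and narrower peaks, so a gene without a K4 peak in NFOs is a gene without a called peak in that list, and its level of K4 is not known.

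**Figure D1:**
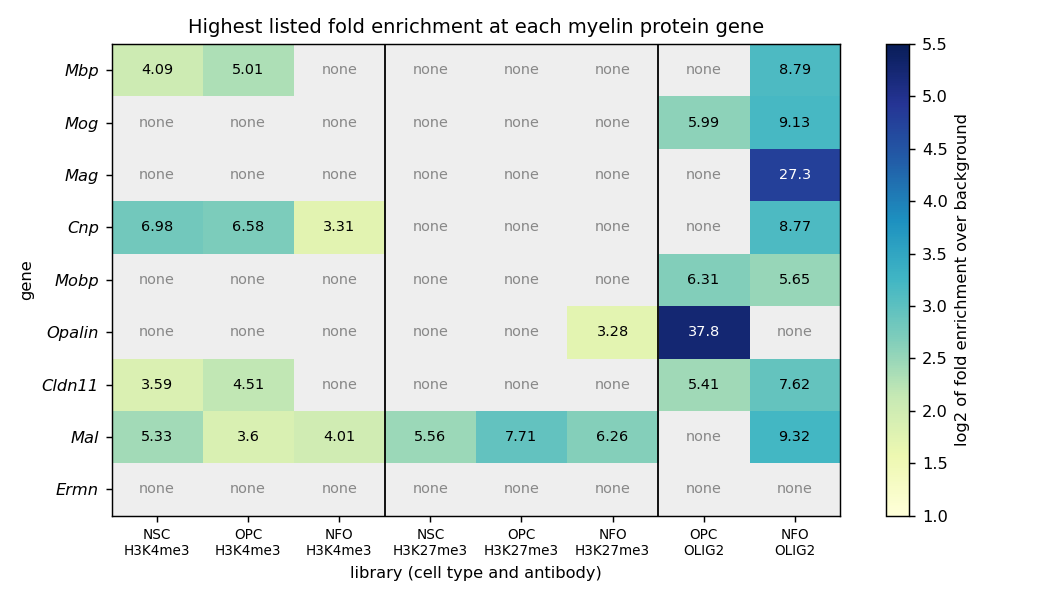
Highest fold enrichment of the listed peaks at each gene (rows) in each of the 8 ChIP-Seq libraries (columns), with histone peaks counted within 2 kb of a start site and OLIG2 peaks in the gene or within 50 kb, and colour on a log2 scale. Mal carries both histone marks in all 3 cell types, Ermn has no listed peak in any library, and the highest values are the OLIG2 peaks of Opalin in OPCs (37.8) and of Mag in NFOs (27.3).

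Cnp, the gene of the cyclic nucleotide phosphodiesterase of non-compact myelin (chromosome 11, 100574904 to 100591729, plus strand), carried the widest K4 peak of the set. In NSCs it ran from 100573894 to 100577688, over 3795 bp, reached a fold enrichment of 6.98, and was wider than 96.4% of the peaks of that list. In OPCs it covered 1541 bp (100574798 to 100576338) and reached 6.58, while the NFO peak covered 212 bp (100575111 to 100575322) and reached 3.31, which did not pass the filter. The NFO peak lay inside the NSC and OPC peaks. Peak widths are not on one scale, since by the peak names single-end reads were used for NSCs and paired-end reads for the others, so the narrowing is given as listed.

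Cldn11, which encodes the claudin of the tight junctions between myelin layers (chromosome 3, 31149920 to 31164324, plus strand), had a K4 peak of 545 bp over its start site in NSCs with a fold enrichment of 3.59. In OPCs the peak covered 695 bp with a fold enrichment of 4.51 and contained the NSC peak whole. The nearest K4 peak of the NFO list lay 50.3 kb from the start site. Both Cldn11 peaks were low for their lists, above those of 3.06% of the marked genes in NSCs and of 11.1% in OPCs.

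Mal, the gene of a small membrane proteolipid of lipid rafts (chromosome 2, 127633226 to 127656695, minus strand), carried K4 in all 3 cell types. The NSC peak covered 963 bp (127656107 to 127657069), at a fold enrichment of 5.33. The OPC peak covered 657 bp at 3.60, and the NFO peak 209 bp (127656778 to 127656986) at 4.01. All of these peaks lay over or just upstream of the annotated gene start. The NFO peak was the only member's K4 peak in NFOs that passed the filter.

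Mal was also the only member with K27 near a start site in NSCs and OPCs, 1 of 9 in each, against 15.1% of all genes in NSCs and 16.4% in OPCs. Its K27 peaks over the start site had fold enrichments of 5.56 (NSCs, 950 bp), 7.71 (OPCs, 622 bp) and 6.26 (NFOs, 1096 bp), and these values exceeded those of 90.5%, 84.6% and 91.4% of the genes with a K27 peak. K4 and K27 overlapped there by 807 bp in the NSC lists, by 532 bp in those of OPCs and by 209 bp in those of NFOs. Mal therefore had overlapping marks in each cell type, 1 of 9 genes, against 8.98% of all genes in NSCs, 5.53% in OPCs and 2.91% in NFOs. Further K27 peaks lay downstream in the gene, at fold enrichments of 4.61 and 6.33 in OPCs and of 4.12 in NFOs. Those at 4.61 and 4.12 stood within 2 kb of a start site and overlapped no K4 peak. The study called a gene bivalent only where it had no such K27-only peak, a rule that was not applied here. Since the marks were measured on separate samples of each cell population, marks on the same allele and marks in different cells cannot be told apart.

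**Figure D2:**
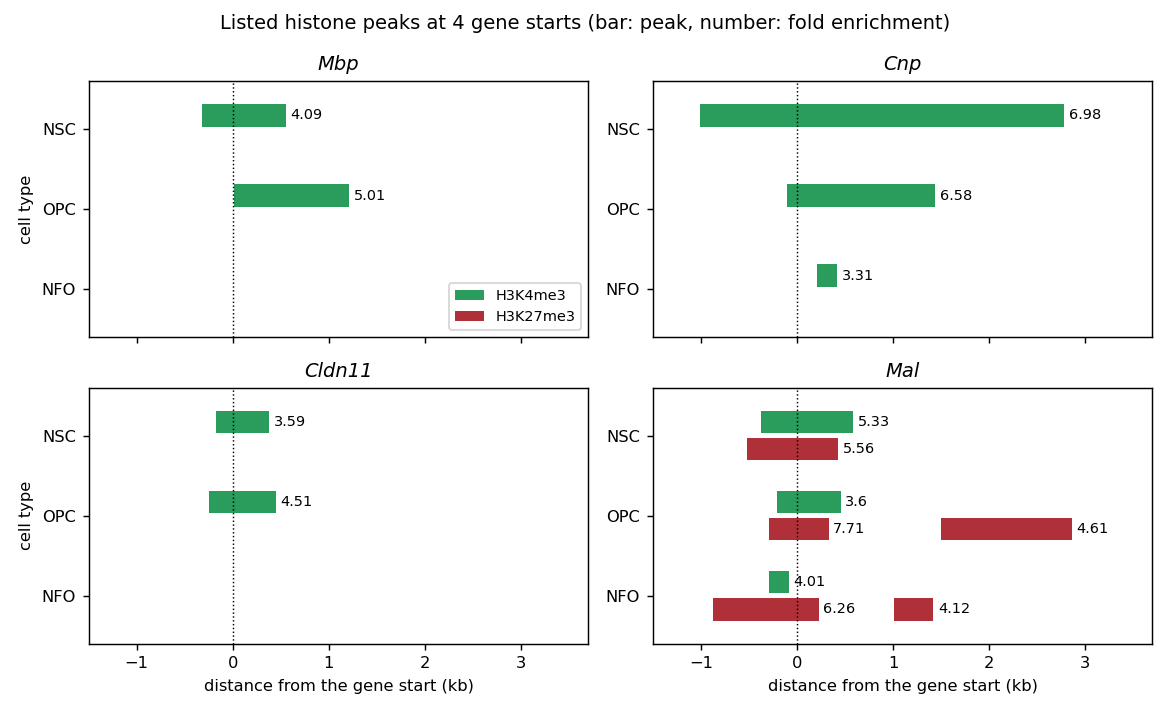
Listed K4 (green) and K27 (red) peaks near the starts of Mbp, Cnp, Cldn11 and Mal in the 3 cell types, by distance from the annotated gene start in the direction of transcription in kb, with the fold enrichment beside each bar. K4 is listed at Mbp and Cldn11 in NSCs and OPCs alone, and at Mal K27 lies over K4 in every row. The Mbp panel shows its upstream start, and its classic start lies outside the panel.

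In NFOs, K27 stood near a start site of 2 of 9 genes, against 9.58% of all genes. The second gene was Opalin, which encodes a sialylated membrane glycoprotein of the oligodendrocyte (chromosome 19, 41061710 to 41077113, minus strand). Its peak was 186 bp wide, stood at a fold enrichment of 3.28, lay 0.883 kb upstream of an internal start site, and did not pass the filter, which left 1 of 9 genes against 7.68% of all. Away from start sites, K27 peaks stood in the bodies of Mag (fold enrichment 3.49) and Mobp (4.49) in NSCs, and of Cldn11 in NSCs (4.41) and OPCs (5.40 and 4.48). All of these lay in introns, and the Mag peak did not pass the filter. Mog, Mag, Mobp and Ermn had no listed peak of either mark near a start site in any cell type, 4 of 9 against 28.3% of all genes.

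The genes with and without K4 differed in the base composition of their starts, which no part of the choice used. In the 1001 bases around the annotated gene start, the ratio of observed to expected CpG dinucleotides was 0.60 for Mbp, 0.59 for Cldn11 and Cnp, and 0.57 for Mal, the 4 genes with K4. The 5 genes without K4 had lower ratios, of 0.32 for Mobp, 0.28 for Ermn, 0.25 for Opalin, 0.16 for Mag and 0.15 for Mog, and the groups did not overlap. Across the genome the medians differed in the same direction while the groups overlapped, with a median of 0.71 over the 14559 genes with K4 in at least 1 cell type and of 0.17 over the 7352 genes with none. Of the genes above a ratio of 0.4, a value set after the ratios were seen, 94.7% had K4 in at least 1 cell type, and of those below it 24.1%. The promoters of Cnp and Mal, with K4, and of Mog and Ermn, without it, are shown as examples of these groups. They are RefSeq promoters of GRCm38.p6, given 5′ to 3′ on the strand of the gene and ended at the annotated gene start, with each CG in capitals.
Cnp, plus strand, chr11:100574689-100574903: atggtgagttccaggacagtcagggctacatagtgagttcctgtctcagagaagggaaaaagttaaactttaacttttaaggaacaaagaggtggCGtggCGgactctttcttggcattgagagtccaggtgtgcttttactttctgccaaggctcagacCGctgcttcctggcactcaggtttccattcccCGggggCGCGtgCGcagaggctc
Mal, minus strand, chr2:127656696-127656945: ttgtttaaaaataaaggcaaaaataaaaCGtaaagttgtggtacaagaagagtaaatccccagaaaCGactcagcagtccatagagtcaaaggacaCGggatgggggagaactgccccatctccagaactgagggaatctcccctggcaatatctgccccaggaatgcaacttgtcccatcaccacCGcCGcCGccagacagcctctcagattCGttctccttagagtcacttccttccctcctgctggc
Mog, minus strand, chr17:37023399-37023648: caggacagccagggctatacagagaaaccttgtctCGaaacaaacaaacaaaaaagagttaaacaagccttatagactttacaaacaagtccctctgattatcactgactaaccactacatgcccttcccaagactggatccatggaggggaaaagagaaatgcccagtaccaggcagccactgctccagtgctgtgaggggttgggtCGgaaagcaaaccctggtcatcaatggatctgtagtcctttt
Ermn, minus strand, chr2:58052865-58053114: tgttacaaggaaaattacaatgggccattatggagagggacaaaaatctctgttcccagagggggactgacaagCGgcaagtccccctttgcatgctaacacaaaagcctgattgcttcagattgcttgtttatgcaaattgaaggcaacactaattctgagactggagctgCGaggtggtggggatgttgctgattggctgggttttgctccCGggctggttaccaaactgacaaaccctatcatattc
The 215 bases of Cnp hold 7 CG and the 250 bases of Mal 7, those of Mog 2 and those of Ermn 3. The full 250 bases of the Cnp entry, which run past the annotated start, hold 13, and the median over all 32851 promoters of the table is 6 in 250 bases, so that the numbers of Mal and of the shortened Cnp stand near it. The CG of Cnp stand mostly toward its start site, and those of Mal in part near the far end. Of the 9 genes, 8 had an entry in the promoter table.

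**Figure D3:**
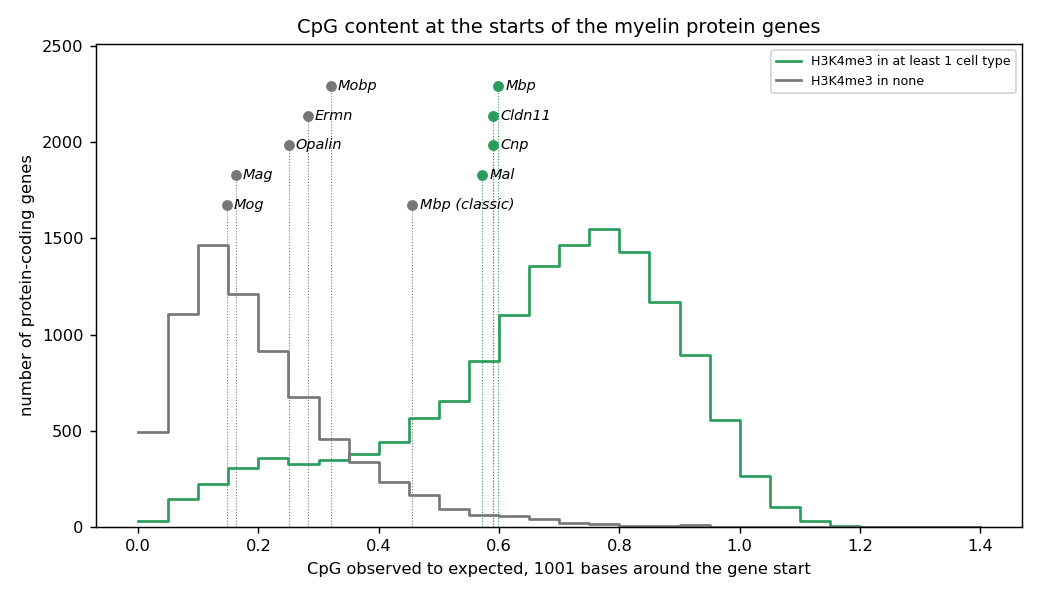
Number of protein-coding genes by the ratio of observed to expected CpG in the 1001 bases around the gene start, for genes with a K4 peak in at least 1 cell type (green line) and in none (grey line), with the myelin protein genes marked as points in the same colours at heights that carry no value. The 4 genes with K4 sit between 0.57 and 0.60 and the 5 without it between 0.15 and 0.32, while the second, classic start of Mbp lies at 0.46 without a K4 peak.

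OLIG2 peaks were listed at more of the genes in NFOs than in OPCs, as they were over all protein-coding genes. The lists are not on one scale, with 7384 peaks up to an FDR of 0.000235 in OPCs and 16911 up to 0.517 in NFOs. In OPCs, 4 of the 9 genes (Mog, Mobp, Opalin and Cldn11) had an OLIG2 peak in the gene or within 50 kb, against 42.4% of all genes. In NFOs, 7 of the 9 had one (all but Opalin and Ermn), against 65.1% of all genes. By course, 4 genes (Mbp, Mag, Cnp and Mal) were listed in NFOs and not in OPCs, against 31.3% of all genes, 3 (Mog, Mobp and Cldn11) in both against 33.8%, 1 (Opalin) in OPCs alone against 8.55%, and 1 (Ermn) in neither against 26.3%. The windows of the 9 genes covered 1.15 Mb and held 4 OPC peaks and 15 NFO peaks, or 3.48 and 13.1 per Mb. Over the windows of all protein-coding genes the densities were 3.56 and 7.73 per Mb. The median fold enrichment of the members' peaks was 6.15 in OPCs and 8.09 in NFOs, against 8.03 and 8.12 over the whole lists. Of the 19 peaks, 7 lay in the gene itself, 1 in OPCs and 6 in NFOs, each in an intron, and which gene, if any, the other 12 act on was not tested.

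**Figure D4:**
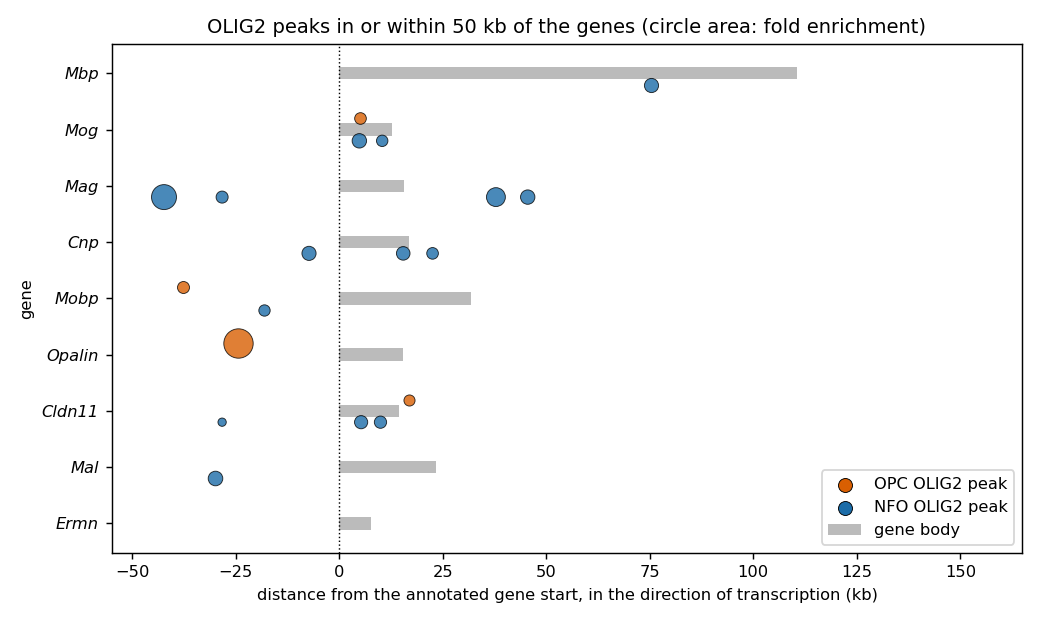
OLIG2 peaks of OPCs (orange) and NFOs (blue) at each gene, by the distance of their centre from the annotated gene start in the direction of transcription in kb, with circle area in proportion to fold enrichment and gene bodies in grey. NFO peaks outnumber OPC peaks by 15 to 4, the peaks of Mog coincide in its body, and the largest circles lie outside the genes Mag and Opalin.

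Mog, the gene of a glycoprotein of the outermost myelin surface (chromosome 17, 37010743 to 37023398, minus strand), was the only member at which OPC and NFO peaks overlapped. The OPC peak had a fold enrichment of 5.99 and its centre lay 4.94 kb into the gene. The NFO peak (37018423 to 37018658) had a fold enrichment of 9.13 and shared 146 bp with it, and a second NFO peak 10.4 kb into the gene had one of 5.73. Over the whole lists, 14.3% of the OPC peaks overlapped an NFO peak and 6.26% of the NFO peaks an OPC peak, whereas 1 of 4 and 1 of 15 did at these genes. Opalin had the strongest OLIG2 peak of the set, with a fold enrichment of 37.8 in OPCs, above 99.3% of that list. It lay 24.6 kb upstream of the gene start, within the neighbouring gene Tll2, and shared 103 bp with a K27 peak of OPCs. No NFO peak lay within 50 kb of Opalin, and the nearest was 259 kb from its start. Of the 278 OPC peaks with a fold enrichment of 20 to 40, a range set after this peak was seen, 51.8% overlapped an NFO peak. The OPC peaks of Mog and Opalin are printed, plus strand of GRCm38, because one recurred in NFOs and the other was the strongest and did not. Capitals mark the words searched for below.
Mog, OPC peak in an intron, chr17:37018339-37018568: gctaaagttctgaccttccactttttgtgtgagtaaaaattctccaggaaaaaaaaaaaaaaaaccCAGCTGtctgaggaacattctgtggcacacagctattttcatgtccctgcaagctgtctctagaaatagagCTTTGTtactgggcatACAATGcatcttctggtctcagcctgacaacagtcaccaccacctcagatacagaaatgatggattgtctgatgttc
Opalin, OPC peak upstream, chr19:41101564-41101793: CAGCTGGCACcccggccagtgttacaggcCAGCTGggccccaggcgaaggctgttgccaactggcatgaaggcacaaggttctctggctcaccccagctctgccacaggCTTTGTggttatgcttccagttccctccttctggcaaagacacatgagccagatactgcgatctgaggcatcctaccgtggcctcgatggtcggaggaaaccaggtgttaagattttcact
The Mog sequence holds 3 of the words, the E-box CAGCTG, the SOX word ACAAAG read on the other strand, and the second SOX word ACAATG. The Opalin sequence holds 4, with CAGCTG found at 2 places, CTGGCAC overlapping the first of them, and ACAAAG on the other strand.

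Mag, which encodes the adhesion glycoprotein that faces the axon (chromosome 7, 30899176 to 30914873, minus strand), had the most OLIG2 peaks in NFOs and none in OPCs. Its 4 NFO peaks had fold enrichments of 27.3, 15.6, 9.06 and 6.36, and all lay outside the gene, between 22.0 and 42.2 kb from its nearer end. Each stood closer to the start of another gene. The strongest was centred 0.392 kb upstream of the start site of Usf2, inside K4 peaks of NSCs, OPCs and NFOs. The next lay in Cd22, 1.05 kb past its start site, and the weakest in Hamp. These peaks were counted for Mag by distance alone. Cldn11 had 1 OPC peak (fold enrichment 5.41), 2.28 kb beyond its end, and 3 NFO peaks. The first of these lay 28.3 kb upstream, reached 3.03, and fell short of the OLIG2 filter (fold enrichment above 5, FDR below 0.05). The other NFO peaks, with fold enrichments of 7.62 and 6.60, lay in introns at 5.28 and 9.96 kb from the start. Both overlapped K27 peaks that OPCs carried in the gene, by 197 and 236 bp, and the first also a K27 peak of NSCs, by 163 bp. None of the 15 NFO peaks overlapped a K27 peak of NFOs. Over all NFO OLIG2 peaks, 9.75% overlapped a K27 peak of OPCs, 15.8% one of NSCs and 2.44% one of NFOs, while at these genes 3 of 15, 1 of 15 and 0 of 15 did. The strongest peaks counted for Mag and the Cldn11 peak at the earlier K27 sites are printed in the same way.
Mag, NFO peak beside Usf2, chr7:30957077-30957312: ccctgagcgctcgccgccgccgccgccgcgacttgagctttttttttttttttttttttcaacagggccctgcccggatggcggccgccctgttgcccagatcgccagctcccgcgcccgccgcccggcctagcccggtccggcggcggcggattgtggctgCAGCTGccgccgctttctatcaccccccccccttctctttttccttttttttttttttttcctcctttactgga
Mag, NFO peak in Cd22, chr7:30876914-30877149: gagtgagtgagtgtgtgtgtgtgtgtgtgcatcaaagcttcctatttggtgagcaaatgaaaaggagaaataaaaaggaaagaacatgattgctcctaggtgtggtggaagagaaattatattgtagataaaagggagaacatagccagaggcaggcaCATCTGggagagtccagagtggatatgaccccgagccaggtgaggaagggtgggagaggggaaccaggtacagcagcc
Cldn11, NFO peak in an intron, chr3:31155084-31155319: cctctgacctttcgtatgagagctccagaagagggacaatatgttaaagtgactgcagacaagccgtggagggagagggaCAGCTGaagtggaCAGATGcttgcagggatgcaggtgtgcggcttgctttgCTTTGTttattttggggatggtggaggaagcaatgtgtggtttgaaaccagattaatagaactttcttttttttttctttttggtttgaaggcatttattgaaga
The peak beside Usf2 holds 1 CAGCTG in a CG-rich stretch, and the peak in Cd22 holds 1 CAGATG on the other strand. The Cldn11 peak holds CAGCTG followed closely by CAGATG, and further on ACAAAG on the other strand.

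At the remaining genes no OLIG2 peak exceeded a fold enrichment of 9.32. Cnp had 3 NFO peaks, 7.30 kb upstream of its start in Ttc25 (fold enrichment 8.77), in an intron 15.5 kb from its start where the gene overlaps Dnajc7 (8.09), and 5.60 kb beyond its end (5.96). Mal had 1 NFO peak, 30.0 kb upstream of its start, with a fold enrichment of 9.32, and it shared 152 bp with a K27 peak of OPCs. All bases within 100 of its summit were marked as repeat sequence. In 8 of the 19 OLIG2 peaks of the members most of these bases were so marked. Among them were all 3 peaks of Cnp and the printed peak in Cd22 (69.2%). Mobp, the gene of a small basic protein of compact myelin (chromosome 9, 120149707 to 120181484, plus strand), had 1 OPC peak (6.31) 37.7 kb upstream in Slc25a38 and 1 NFO peak (5.65) 18.1 kb upstream in Rpsa, centred 1.55 and 1.53 kb past those genes' own start sites. Ermn, which encodes the cytoskeletal protein ermin (chromosome 2, 58045113 to 58052864, minus strand), had none, and the nearest OLIG2 peaks lay 58.3 kb from its start in OPCs and 71.2 kb in NFOs.

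Within 100 bases on each side of the summit of each OLIG2 peak, short words of factors of the lineage were searched on both strands. An E-box (the palindrome CAGCTG, the word CAGATG or the palindrome CATATG) stood in 3 of the 4 OPC peaks and in 5 of the 15 NFO peaks of these genes, against 31.4% and 27% of all peaks in the lists. A SOX word, either ACAAAG or the variant ACAATG, stood in 3 of 4 and 5 of 15, against 25% and 25.1%. A word bound by the myelin regulatory factor MYRF, either CTGGCAC or the variant CTGGTAC, stood in 0 of 4 and 1 of 15, against 4.96% and 4.45%, and that single match was CTGGTAC in the NFO peak of Mbp. The CTGGCAC of the Opalin peak lay outside these central bases. The words CAGCTG and also CTGGCAC can overlap, and a match describes letters, not a bound site.

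Other genes of central myelin and its oligodendrocytes gave a comparison, in which K4 was listed at a larger share of the genes than at the 9 members in each cell type, a difference that was not tested. Of 22 such genes, K4 peaks stood at 16 in NSCs, 16 in OPCs and 9 in NFOs, K27 peaks at 5, 5 and 2, and OLIG2 peaks at 15 in OPCs and 15 in NFOs. Of all protein-coding genes, K4 was listed at 64.3%, 60.8% and 43.6%, K27 at 15.1%, 16.4% and 9.58%, and OLIG2 at 42.4% and 65.1%. No K4 in any cell type was found at 4 of the 22, against 33.6% of all genes. Omg, the gene of an oligodendrocyte glycoprotein that limits neurite growth, had K4 at a fold enrichment of 6.92 in NSCs, at 9.84 in OPCs and, in NFOs, at 14.49. Ugt8a, the galactosyltransferase of galactocerebroside synthesis, had 5.84, 7.94 and 8.15, and Jam3, a junctional adhesion molecule, 6.42, 5.92 and 7.08. Omg, Ugt8a and Jam3 were named because they had the highest K4 values of the 22 genes in NFOs. Their place above Cnp (3.31) and Mal (4.01) there was therefore set by the choice. Over the 9 of the 22 genes with K4 in NFOs the median was 5.19, against 3.66 over the 2 marked members. The strongest OLIG2 peaks of that list stood at Plekhb1, with a fold enrichment of 38.7 in OPCs and 73.6 in NFOs, at Bcas1 in OPCs (16.1) and at the deacetylase gene Sirt2 in NFOs (28.4). The 5 genes with K27 near a start site in OPCs were Cntn2 (10.5), Enpp6 (6.04), Hapln2 (5.26), Gpr37 (3.15) and Jam3 (2.86). In NFOs, K27 was listed at Cntn2 (3.36) and Hapln2 (3.24). The values of Gpr37 and Jam3 in OPCs, and of Cntn2 and Hapln2 in NFOs, fell short of the fold enrichment filter of the methods. The counts for the 22 genes used all listed peaks, without that filter. K4 and K27 peaks overlapped at 4 of the 22 genes in NSCs and at 0 in OPCs and 0 in NFOs, and at 1 of the 9 members, Mal, in each cell type, a difference that was not tested.

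Mbp, the gene of myelin basic protein of compact myelin (chromosome 18, 82475146 to 82585637, plus strand), has 2 groups of start sites. The upstream group serves the long Golli transcripts, and the downstream group, from 82554470, the classic transcripts of myelin. K4 was listed at the upstream group alone. The peak covered 873 bp in NSCs (82474824 to 82475696) at a fold enrichment of 4.09, and 1200 bp in OPCs (82475162 to 82476361) at 5.01. The peaks shared 535 bp. At the classic start, the nearest K4 peak lay 78.8 kb away in NSCs and 78.1 kb in OPCs, and in NFOs 313 kb. The CpG ratio there was 0.46, and 43.5% of all genes had a lower one at their gene start. With Mbp counted at its classic start sites alone, K4 stood at 3 of 9 genes in NSCs and in OPCs. The 1 OLIG2 peak of Mbp was listed in NFOs (82550420 to 82550655) with a fold enrichment of 8.79, in an intron of the long transcripts and 3.93 kb upstream of the classic start. No OPC peak lay within 50 kb of the gene, and the nearest was 84.0 kb from the classic start.

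Mbp was also the only one of the 9 genes with RIP-Seq sites, and its sites held more tags with control IgG than with the OLIG2 antibody. The titles give the RIP-Seq samples as NFOs and the methods of the study as NSCs, so the cell type behind these values is uncertain. After repeats of a site under different transcripts were removed, the OLIG2 list held 40 sites in Mbp with 1063 tags (exact Poisson 95% interval 1000.1 to 1129), and the IgG list 31 sites with 3007 tags (2900.5 to 3116). OLIG2 took 26.1% of the tags of both lists at Mbp (exact binomial 95% interval 24.8% to 27.5%). These intervals cover counting error only, and tags are not independent molecules. Over all sites the lists were alike in size, with 1035748 tags for OLIG2 and 1033192 for IgG, or 50.1% for OLIG2. Over the 579 genes with sites in both lists the median OLIG2 share was 48.2%, and 4.49% of the genes lay below Mbp.

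The tags lay in exons, with 99% of the OLIG2 tags and 99.8% of the IgG tags of Mbp. The last exon (82584112 to 82585637) held 745 OLIG2 tags and 1694 IgG tags, or 70.1% and 56.3% of each list's tags in the gene, most of them in the 3′ UTR (724 and 1605). The merged exon that holds the classic start (82554320 to 82558703) had 181 and 610 tags. The 2 most upstream sites, in exons of the Golli transcripts, had 4 and 5 tags in the OLIG2 list and no IgG site. Of the 40 OLIG2 sites, 17 overlapped an IgG site, and in 0 of these 17 did the OLIG2 tags exceed 2 times the IgG tags, against 15.3% of all OLIG2 sites that overlapped an IgG site. The ratio of OLIG2 to IgG tags at these 17 sites had a median of 0.217 and reached 0.88 at most, against a median of 0.783 over all transcripts. Each ratio sets an OLIG2 site against all tags of the IgG sites it touches, whatever their lengths. The RPKM that the authors' list gives for the 14 Mbp transcripts, from RNA-Seq of NSCs, was at most 0.138, below the minimum of 1 that the methods set.

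**Figure D5:**
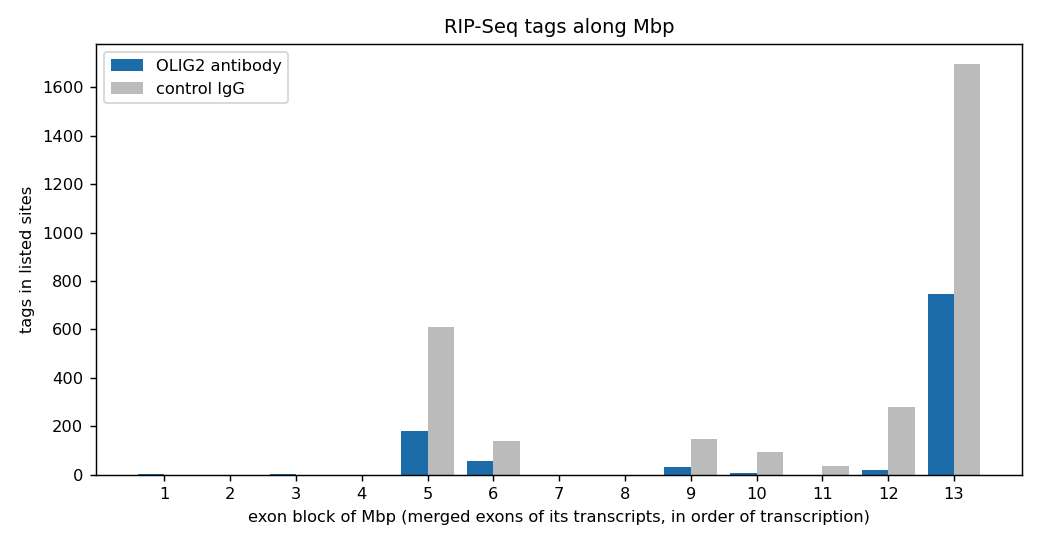
Tags in the listed RIP-Seq sites of Mbp with the OLIG2 antibody (blue) and control IgG (grey), summed over 13 merged exon blocks numbered in the direction of transcription. IgG tags exceed OLIG2 tags in every block with IgG sites, and the last block holds 745 OLIG2 and 1694 IgG tags.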

How the data were processed

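The authors aligned the ChIP-Seq reads with Bowtie2 to mm10, retained unique alignments, called broad histone peaks with MACS2 and OLIG2 peaks with SPP, library by library, and removed blacklisted regions. The deposited lists give the authors' fold enrichment, a ratio over background, with the −log10 FDR (q-value) and, for histone marks, the −log10 p-value. The deposited histone lists reach an FDR of 0.1, the NFO OLIG2 list one of 0.517 and the OPC OLIG2 list one of 0.000235. All listed peaks were used, with the filter of the methods as an alternative. RIP-Seq sites were called by the authors with ASPeak. Their deposited lists hold tag counts per site, a p-value of at most 0.01 and the authors' RPKM per transcript. The 3 input libraries were not used, nor was OLIG2 ChIP-Seq of NSCs.

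Peaks were assigned here by an overlap of at least 1 bp with windows of 2 kb around every TSS of GENCODE M21 or of 50 kb around genes. Marks overlapped where a K4 peak near a TSS shared at least 1 bp with a K27 peak. For TSS windows alone, the assignment of simulated peaks was set against a direct search by the same rule, with the same answer for 2000 of 2000 genes. The 50 kb windows and the overlaps of marks were not checked in this way. RIP-Seq sites repeated under several transcripts were counted once. Sequences came from RefSeq and the GRCm38.p6 genome. All 9 genes were named, with those of the other 22 myelin genes with the highest values for each mark, and genes with the nearest profile. Some genes that this rule takes in are not reported here. The members and gene lists were chosen with earlier results of these data known. With 1 library per condition no test was made, and shares of all protein-coding genes serve as background. The tools were pysam 0.24.0, SciPy 1.17.1, pandas 2.3.3, NumPy 2.4.6 and Matplotlib 3.10.9 under Python 3.11.15.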

Additional observations from a re-analysis of the deposited data

How the results depend on the processing

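Of 62 alternative values, 45 stayed within 1.5 times the main count and 17 did not, 15 of them lower. A step from 4 genes to 3 falls within that range. The RIP-Seq tag counts, also among the 45, could hardly change at a p-value below 0.01, since the lists end at 0.01. With the filter of the methods, H3K4me3 in NFOs stood at 1 gene (Mal) and H3K27me3 in NFOs at 1 (Mal), and the counts in NSCs and OPCs, the overlaps of both marks and the counts of genes with OLIG2 peaks did not change. A fold enrichment above 5 left H3K4me3 at 2 genes in NSCs, 2 in OPCs and none (0) in NFOs, and H3K27me3 in NFOs at 1. One TSS per gene, or an overlap of at least 200 bp, gave 1 gene with H3K27me3 in NFOs. Counting gene bodies gave H3K27me3 at 4 genes in NSCs and 2 in OPCs. A fold enrichment above 10 left OLIG2 peaks at 1 gene in OPCs (Opalin) and 1 in NFOs (Mag). Peaks in the gene or up to 5 kb upstream gave 1 gene in OPCs and 4 in NFOs. A window of 20 kb gave 2 genes and 2 peaks in OPCs and 9 peaks in NFOs. Apart from the histone filter in NFOs, shares of all protein-coding genes were not computed under these alternatives. Whether the counts differ from those of other genes was therefore not tested. The count of Mbp at its classic start sites alone was added after the data were seen. No paired analysis was possible because each condition has 1 library, and none could be left out. Read depth is unknown, so a missing peak cannot be told apart from too few reads.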

Other observations

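Among 7 genes of peripheral myelin, made by Schwann cells, K4 peaks stood in NSCs, OPCs and NFOs at 5, 4 and 2, K27 peaks at 0, 3 and 3, and OLIG2 peaks at 1 in OPCs and 4 in NFOs. Ncmap had K27 at a fold enrichment of 3.79 in OPCs and 3.75 in NFOs, and Egr2, the gene of a transcription factor of Schwann cell myelination, at 3.57 in both. At none of the 7 genes did the K4 and K27 peaks overlap. The shares over all protein-coding genes were 64.3%, 60.8% and 43.6% for K4, 15.1%, 16.4% and 9.58% for K27, and 42.4% and 65.1% for OLIG2.

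By the highest fold enrichment in the 8 ChIP-Seq libraries on a log2 scale, the genes nearest to the mean profile of the 9 myelin protein genes were Gm10775, Elf4, Il22ra1, Lpin3, 4921509C19Rik and Tmem71, at Euclidean distances of 1.54 to 1.68. The members lay 1.95 (Cldn11) to 4.98 (Opalin) from their own mean. The number of other genes nearer to it ran from 77 for Cldn11 to 19087 for Opalin.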
